A study of Mus musculus with 8 samples.

Results

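The genes described here encode 10 subunits of Polycomb repressive complex 1 (PRC1) and of its variant PRC1.6: Ring1, Rnf2, Bmi1, Pcgf1, Pcgf2, Pcgf3, Pcgf5, Pcgf6, L3mbtl2 and Mga. They were chosen by name. All 10 are listed in both deposited tables, among 23694 gene names in the female table and 23409 in the male table, and each has a single row there. All 10 averaged 1 FPKM or more in each sex, the limit set for a test.

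PRC1 is a ubiquitin ligase that places a ubiquitin on histone H2A at genes to be kept silent. Every PRC1 holds a catalytic RING subunit, RING1 (Ring1) or RING1B (Rnf2), paired with a PCGF subunit that sets the kind of complex. BMI1 and PCGF2 belong to canonical PRC1, which reads the H3K27 methylation left by PRC2 through CBX proteins. PCGF1, PCGF3, PCGF5 and PCGF6 belong to variant complexes that carry RYBP or YAF2. The PCGF6 complex, PRC1.6, also contains L3MBTL2, E2F6 and the MGA-MAX pair, and is known for keeping germline and meiotic genes silent in embryonic stem cells. In fetal ovaries germ cells enter meiosis, whereas in fetal testes they stop dividing.

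The libraries came from E15.5 mouse gonads, and the sort relied on an Oct4-EGFP transgene that all embryos carried. Controls and Snf5 CKO were taken from each sex, with 2 libraries in each of these 4 groups. Snf5 (Smarcb1) encodes a constant subunit of SWI/SNF, which slides and evicts nucleosomes, and Snf5 CKO embryos had a floxed and a deleted allele (Snf5 fx/Δ) with TNAP-Cre, a Cre knocked into Alpl that is active in primordial germ cells. Controls were a mixture of Snf5 fx/+, Snf5 fx/Δ and Snf5 fx/+ with TNAP-Cre, so some controls carried the deleted allele or the Cre as well. The study found germ cells that kept SNF5 in Snf5 CKO gonads, in a share that differed from mouse to mouse, which its authors put down, as probable, to how well and when Cre acted in each animal. Male Snf5 CKO replicate 2 came from a single embryo whereas the other libraries pooled embryos. The labels name the strain as C57BL/6, while the methods describe a mixed background. RNA was amplified as cDNA with a kit that keeps no strand, and values are FPKM, fragments scaled to transcript length and to the mapped fragments of the library. Female and male tables were normalized separately, so levels are compared only within a sex.

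The label check held. Smarcb1 was at 23.4 and 22.3 FPKM in female controls against 4.24 and 2.47 in female Snf5 CKO, and at 141 and 167 against 8.73 and 10.1 in males. The germ cell markers Ddx4 and Dazl were at 203 FPKM or more in every library. Ddx4 alone of the germ cell marker list was called lower in male Snf5 CKO, with values given below. Dazl lay above both controls in males, and in females both genes lay below both controls, without being called. Of the other two on that list, which mark earlier germ cells, Pou5f1 (Oct4, the gene whose regulatory sequence drives the transgene of the sort) rose in females from 8.63 and 16.7 to 295 and 333 FPKM (log2 fold change 4.59) and Dppa3 from 41.2 and 61.3 to 1406.5 and 1632.5 FPKM (4.89). In males Pou5f1 was at 399 and 436 FPKM in controls and 620.4 and 648 in Snf5 CKO (adjusted p = 0.094), and Dppa3 at 1754 and 2025 against 2276 and 2979 (adjusted p = 0.41), neither called. Markers of gonadal supporting cells (Sertoli and pre-granulosa cells) were higher in Snf5 CKO in both sexes. In females the sum over 10 such markers was 7.48 to 10.8 FPKM in controls against 26.2 to 28.2 in Snf5 CKO. The 7 tested were higher there and called, but Wt1, Nr5a1, Foxl2 and Wnt4 averaged under 1 FPKM in female controls and were tested only because of their level in Snf5 CKO. Sox9 and Amh were at or below 0.132 FPKM in every female library, and Dhh was listed at 0 in both female controls. In males 8 were tested and 7 rose, with sums of 35.7 to 46.2 against 171 to 223 FPKM. The 5 Leydig cell markers summed to 58.2 to 85.7 FPKM in male controls against 15.1 to 19.2, and to 4.74 to 4.89 in female controls against 11.8 to 12.0. Among them, Insl3 is in a row merged with Jak3 in both sexes. That row was most of each female sum, at 3.13 and 3.99 FPKM in controls and 8.52 and 10.1 in Snf5 CKO. The female Leydig sums therefore cannot be assigned to Leydig markers alone. The 5 stromal markers summed to 8.90 to 19.3 against 2.28 to 3.73 FPKM in males and to 5.83 to 11.4 against 3.89 to 4.58 in females. The 6 blood and endothelial markers summed to 14.9 to 45.3 FPKM in female controls against 26.6 to 48.6, and to 30.0 to 43.7 in male controls against 27.2 to 29.4. Of these, Cdh5, Kdr and Ptprc were at or below 0.875 FPKM in every library. Pecam1, an adhesion gene on this list, rose in females from 4.10 and 3.65 to 24.3 and 19.7 FPKM (2.23). Which cells its transcripts came from was not tested. Tek was lower in male Snf5 CKO, at 0.754 and 0.619 FPKM against 2.65 and 2.85 in controls (-1.16). It was tested there only because of its level in controls, so it had to differ. The haemoglobin gene Hba-a1, in a row merged with Hba-a2, was at 1.47 to 41.1 FPKM in all libraries and was called in neither sex. The part of these cell types in the results that follow was not tested. Loci without a gene name held 36.7% and 35.3% of the FPKM in female controls (replicates 1 and 2) against 9.94% and 28.2% in female Snf5 CKO. In males they held 6.56% and 42.1% in controls and 5.46% and 35.4% in Snf5 CKO. The share was thus lower in Snf5 CKO in females and split by replicate number in males. Its part in the values of named genes was not tested. The tables hold no counts, so depth is unknown and no counting interval is given. From the steps between low values, an estimate of relative depth within a sex ranged from 0.807 to 1.96 in females and from 0.829 to 1.57 in males, with Snf5 CKO replicate 1 set to 1.

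Of the 10 genes, 8 changed in female Snf5 CKO germ cells and 4 in male ones, and the difference between the sexes was not tested. In females, 6 genes fell (Pcgf1, Pcgf3, Pcgf5, Pcgf6, L3mbtl2 and Mga) and 2 rose (Ring1 and Pcgf2). In males, Pcgf5 alone fell, and Rnf2, Bmi1 and L3mbtl2 rose. These calls are Benjamini-Hochberg adjusted p under 0.05 in limma, fitted for each sex over all tested genes on log2(FPKM + 1), a scale that understates the change of low genes. Change was common in these libraries: in the same fits 34.6% of 11529 female genes fell and 26.9% rose, and 25.3% of 12279 male genes fell and 21.0% rose. With the replicate number as a block, 42.6% of female genes fell and 34.1% rose, and 41.2% of male genes fell and 35.1% rose. Of the male calls 45.4% were rises, or 34.7% once each library was scaled to a common sum over named loci, which left no male rise among the 10 genes. In bulk samples, a change in the make-up of the cells and a change of RNA per cell cannot be told apart. The median log2 fold change of the 10 genes was -0.57 in females and 0.23 in males, beside -0.13 and -0.07 over all genes tested.

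**Figure D1:**
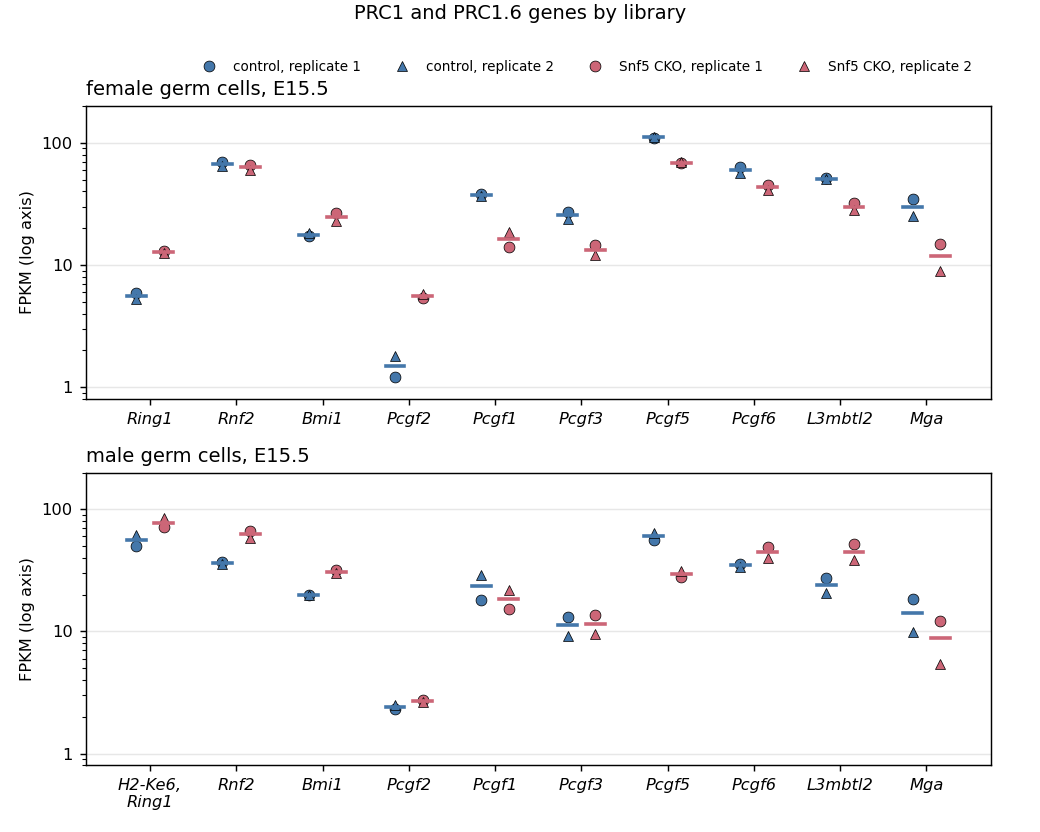
FPKM of the 10 genes on a log axis in female (top) and male (bottom) germ cells. Circles are replicate 1, triangles replicate 2, and horizontal lines the mean of 2 libraries. Female Ring1 and Pcgf2 lie higher in Snf5 CKO (red) than in control (blue), and Pcgf5 lies lower in both sexes. The male Ring1 row is merged with H2-Ke6.

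In female controls the most abundant transcript per length was Pcgf5 (111 ± 2.83 FPKM, SD, n = 2), followed by Rnf2, Pcgf6, L3mbtl2, Pcgf1, Mga, Pcgf3, Bmi1, Ring1 and Pcgf2 (1.50 ± 0.409 FPKM). Mga and Pcgf3 were neighbours in that order whose control libraries overlapped. In male controls Pcgf5 was again the highest of the genes with a row of their own (60.0 ± 4.92 FPKM) and Pcgf2 the lowest (2.40 ± 0.146 FPKM). L3mbtl2, Pcgf1 and Bmi1 lay together between 18.1 and 28.9 FPKM in male controls.

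Of the 2 catalytic subunits, Ring1 rose in females and Rnf2 was not called. Rnf2 encodes RING1B, the main H2A ubiquitin ligase of most cells studied, and lies on the minus strand of chromosome 1 (chr1:151469406-151500823 in mm10). It was at 69.6 and 64.6 FPKM in female controls and 66.3 and 60.0 FPKM in female Snf5 CKO, and these libraries overlapped. Its female log2 fold change was -0.09 (SE 0.17, 95% interval -0.49 to 0.31, adjusted p = 0.67). Ring1, which encodes the paralog RING1 (chr17:34020792-34024822, minus strand), was at 5.85 and 5.26 FPKM in female controls and at 13.0 and 12.6 FPKM in female Snf5 CKO. Its log2 fold change was 1.08 (SE 0.18, adjusted p = 0.0023), with no overlap between the groups. Within each female library, Rnf2 made up 92.2% and 92.5% of the summed Ring1 and Rnf2 FPKM in controls and 83.6% and 82.6% in Snf5 CKO. The difference in the mean share was -9.25 percentage points (exact two-sided permutation p = 0.333, the smallest that 2 libraries against 2 allow).

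In males Rnf2 was the one called. It was at 37.3 and 35.9 FPKM in male controls and at 66.9 and 58.2 FPKM in male Snf5 CKO, a log2 fold change of 0.75 (SE 0.17, adjusted p = 0.020). The male table gives Ring1 only in a row merged with its neighbour H2-Ke6 (chr17:34020792-34028055), a gene for a steroid dehydrogenase on the same strand. That merged row was at 50.1 and 61.4 FPKM in controls and 71.1 and 84.5 FPKM in Snf5 CKO, with a log2 fold change of 0.47 (adjusted p = 0.11, and 0.00091 with the replicate number as a block). The female table lists H2-Ke6 apart, where it rose from 28.1 and 42.5 to 71.2 and 82.5 FPKM. The male value therefore cannot be divided between the genes, and no share of Rnf2 was computed for males.

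The canonical PCGF genes were higher in Snf5 CKO wherever they changed. Pcgf2 encodes MEL18 (chr11:97688823-97713500, minus strand) and showed the largest rise among the 10 genes in females, from 1.21 and 1.79 FPKM to 5.37 and 5.79 FPKM (log2 fold change 1.41, SE 0.21, adjusted p = 0.0013). It was still among the less abundant genes after that rise. The same female locus holds Psmb3, a proteasome subunit gene on the other strand whose exons do not overlap those of Pcgf2. In these libraries Psmb3 rose from 64.7 and 97.3 to 189 and 259 FPKM, and Cisd3, the next gene on the other side, from 10.2 and 15.7 to 41.7 and 62.3 FPKM. Reads of the neighbours could not be separated by strand, and their part in the Pcgf2 value was not tested. In males, Pcgf2 was at 2.30 and 2.51 FPKM in controls and 2.73 and 2.67 FPKM in Snf5 CKO (a log2 difference of 0.12, 95% interval -0.32 to 0.56, adjusted p = 0.60).

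Bmi1, the canonical subunit known for silencing the Cdkn2a locus in stem cells (chr2:18677018-18686629, plus strand), was at 17.2 and 18.1 FPKM in female controls and 26.7 and 22.7 FPKM in female Snf5 CKO. The groups did not overlap, but the test did not call it (log2 fold change 0.46, SE 0.17, adjusted p = 0.056), and it was called with the replicate block (adjusted p = 0.014). In males Bmi1 was at 19.9 and 20.0 FPKM in controls and 32.0 and 29.8 FPKM in Snf5 CKO, a log2 fold change of 0.61 (SE 0.16, adjusted p = 0.033). Cdkn2a fell in both sexes, from 10.9 and 13.7 to 5.07 and 3.72 FPKM in females and from 7.15 and 7.19 to 1.34 and 2.04 FPKM in males. It belongs to the list of developmental regulators given below, where 4 genes rose and 1 fell in females. In males 5 of that list rose and 2 fell. A link between Bmi1 and Cdkn2a was not tested.

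**Figure D2:**
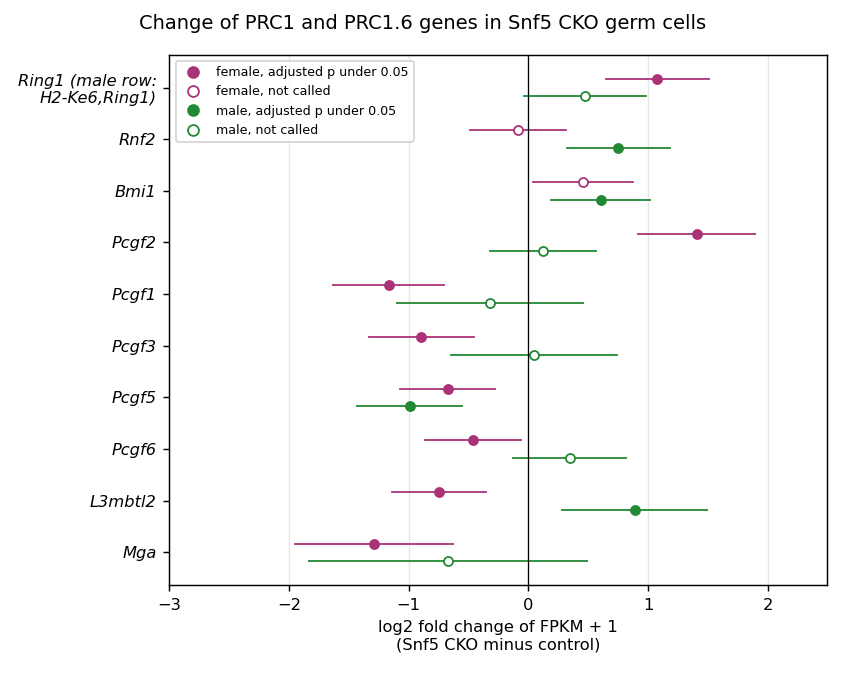
Log2 fold change of FPKM + 1 (Snf5 CKO minus control) of each gene in females (purple) and males (green), with 95% intervals from limma over 2 libraries a group. Filled points passed an adjusted p of 0.05. Pcgf5 is filled on the left in both sexes, and L3mbtl2 is filled on the left in females and on the right in males.

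Of the variant PCGF genes, Pcgf5 was the one called in both sexes, and it fell in each. PCGF5 works with PCGF3 in complexes that bind chromatin without PRC2, and Pcgf5 (chr19:36379067-36456332, plus strand) was the most abundant PCGF transcript in both control groups. It was at 109 and 113 FPKM in female controls and at 68.0 and 70.0 FPKM in female Snf5 CKO, a log2 fold change of -0.67 (SE 0.17, adjusted p = 0.011). In males it was at 56.5 and 63.4 FPKM in controls and at 28.0 and 31.4 FPKM in Snf5 CKO, a log2 fold change of -0.99 (SE 0.17, adjusted p = 0.0096). The groups did not overlap in either sex. An antisense transcript, F530104D19Rik, overlaps exons of Pcgf5, and without strand the 2 cannot be told apart.

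Pcgf3 (chr5:108461332-108503099, plus strand) fell in females, from 27.0 and 23.9 FPKM to 14.5 and 12.0 FPKM (log2 fold change -0.89, SE 0.18, adjusted p = 0.0053). In males it was at 13.2 and 9.13 FPKM in controls and 13.5 and 9.61 FPKM in Snf5 CKO, and the groups overlapped. The male log2 fold change was 0.05, with a 95% interval from -0.65 to 0.74 (adjusted p = 0.90). This interval still includes a fall or a rise of moderate size.

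Pcgf1 encodes the PCGF subunit that joins KDM2B and BCOR at CpG islands (chr6:83078390-83080855, plus strand). In females it fell from 38.2 and 36.7 FPKM to 13.9 and 18.6 FPKM (log2 fold change -1.17, SE 0.19, adjusted p = 0.0022). In males the replicates differed more than the groups, with 18.1 and 28.9 FPKM in controls and 15.2 and 21.7 FPKM in Snf5 CKO. The male log2 fold change was -0.32 (adjusted p = 0.42, and 0.018 with the replicate block).

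Of the 10 genes, the 3 particular to PRC1.6 by their biochemistry all fell in females, where 34.6% of all tested genes fell. The PRC1.6 partners outside the 10 did not share that direction, as 2 fell and 3 rose in females (given below). Pcgf6, whose product defines the complex (chr19:47033619-47050845, minus strand), was at 63.4 and 56.6 FPKM in female controls and 45.2 and 41.3 FPKM in Snf5 CKO (a log2 difference of -0.46, SE 0.17). Its adjusted p of 0.049 is just under the threshold, and it was called in 5 of 14 alternative analyses. In males it was at 35.9 and 33.5 FPKM in controls and 49.1 and 40.0 FPKM in Snf5 CKO, above both controls but not called (log2 difference of 0.34, adjusted p = 0.18, and 0.0096 with the replicate block).

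L3mbtl2 encodes a histone-binding MBT protein of PRC1.6 (chr15:81663889-81697287, plus strand). It was at 51.6 and 50.2 FPKM in female controls and 31.9 and 28.1 FPKM in female Snf5 CKO (a log2 difference of -0.75, SE 0.17, adjusted p = 0.0075). In males it went the other way, from 27.2 and 20.5 FPKM in controls to 51.5 and 38.6 FPKM in Snf5 CKO (a log2 difference of 0.89, SE 0.24, adjusted p = 0.032). Neither sex had overlapping groups. Chadl, a gene on the opposite strand whose exons overlap those of L3mbtl2, shares the locus and also moved in opposite directions. It fell from 10.7 and 15.3 to 4.54 and 5.91 FPKM in females and rose from 0.607 and 0.837 to 2.36 and 3.02 FPKM in males, and without strand the overlapping part of the reads cannot be assigned.

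Mga encodes the large scaffold that pairs with MAX and brings PRC1.6 to DNA (chr2:119871649-119969698, plus strand). In females it fell from 34.7 and 25.2 FPKM to 14.8 and 8.86 FPKM (log2 fold change -1.29, SE 0.28, adjusted p = 0.0064). In males it was at 18.6 and 9.94 FPKM in controls and 12.2 and 5.43 FPKM in Snf5 CKO, so the groups overlapped. The male log2 fold change was -0.67 (95% interval -1.83 to 0.49, adjusted p = 0.28, and 0.0027 with the replicate block). Replicate 2 was the lower one in all 4 groups.

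The replicate number marks a shared sequencing lane for replicate 1, so the difference was also taken within each number. All 10 genes kept one direction across both numbers in each sex. In females 7 were lower in Snf5 CKO within both replicates and 3 were higher, beside 50.7% and 42.0% of all tested genes. In males 3 were lower and 7 higher, beside 49.1% and 43.2%. Pcgf5, for example, differed by -0.67 and -0.68 log2 units in females and by -0.99 and -0.99 in males. With the replicate number as a block, 6 of the 10 fell and 3 rose in females, and 3 fell and 5 rose in males. Both Snf5 CKO libraries were below both controls for 6 genes and above them for 3 in females (45.1% and 36.4% of all genes), and below for 1 and above for 6 in males (40.0% and 34.5%).

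The male calls rest on few libraries. Rnf2 and Bmi1 lost their male call when any of the 4 libraries was left out (adjusted p from 0.061 to 0.12 for Rnf2 and from 0.13 to 0.19 for Bmi1). Male L3mbtl2 lost it without control replicate 2 (adjusted p = 0.15) or Snf5 CKO replicate 1 (0.13), and male Pcgf5 without control replicate 2 (0.060). In females, Ring1, Pcgf1, Pcgf2, Pcgf3 and Mga stayed called without any one of the libraries, while Pcgf6 was not called without any of them. Female L3mbtl2 was not called without Snf5 CKO replicate 2 (0.057), and Pcgf5 was not without control replicate 2 (0.054), Snf5 CKO replicate 1 (0.069) or Snf5 CKO replicate 2 (0.053).

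Because PCGF subunits compete for the same RING partners, the mix of their transcripts was compared within a library, where a common scaling of the library cancels. In females the summed FPKM of the 6 PCGF genes was 256 and 250 in controls and 174 and 170 in Snf5 CKO. The 2 canonical members took more of that sum in Snf5 CKO. Bmi1 made up 6.71% and 7.26% in controls and 15.4% and 13.3% in Snf5 CKO, and Pcgf2 0.473% and 0.716% against 3.09% and 3.40%. Pcgf1 made up 15.0% and 14.7% in controls against 8.03% and 10.9%, while the share of Pcgf6 overlapped between the groups.

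In males the sum was 146 and 158 FPKM in controls and 141 and 135 in Snf5 CKO. Pcgf5 made up 38.7% and 40.3% of it in controls but 19.9% and 23.2% in Snf5 CKO, a difference of -17.9 percentage points. Bmi1 took 13.6% and 12.7% in controls against 22.8% and 22.1%, and Pcgf6 24.6% and 21.3% against 34.9% and 29.6%. The shares of Pcgf1 and Pcgf3 overlapped. Bmi1 thus had a larger share in Snf5 CKO in both sexes, by 7.35 percentage points in females and 9.24 in males. With 2 libraries against 2 the exact two-sided permutation p of each share without overlap was 0.333, so none could pass 0.05. Shares of one sum are not independent of each other.

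**Figure D3:**
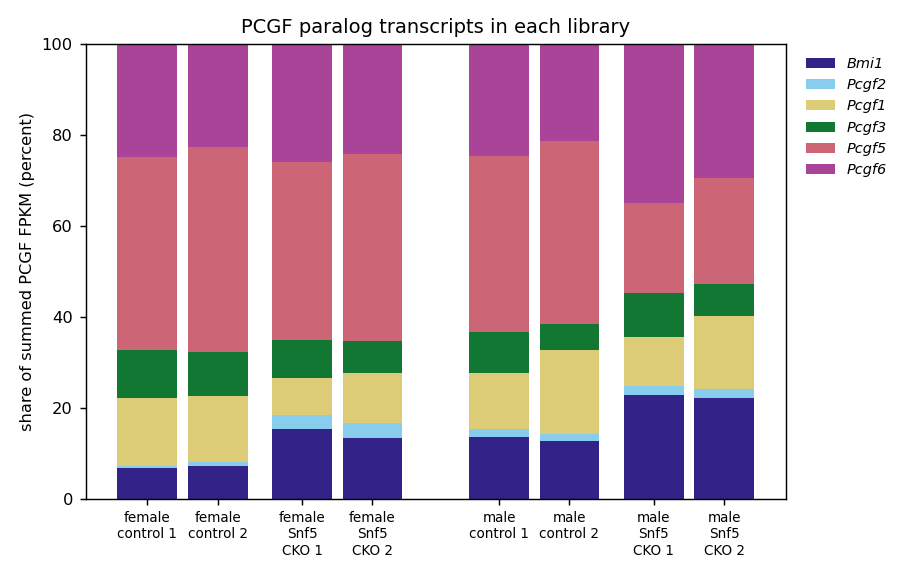
Share of each PCGF gene in the summed FPKM of the 6 PCGF genes, 1 bar per library, in percent. The Bmi1 segment at the base is 6.71% to 7.26% in female controls and 13.3% to 15.4% in female Snf5 CKO, and the Pcgf5 segment in males is 38.7% to 40.3% in controls and 19.9% to 23.2% in Snf5 CKO.

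Partners of canonical PRC1 are CBX proteins, which read methylated H3K27, and PHC, SCMH1 and SCML2 proteins, which carry the SAM domains that bring complexes together. In females 9 of 9 were tested, 4 fell and 2 rose, beside 34.6% and 26.9% of all female genes, with a median log2 fold change of -0.36. Phc2 rose from 13.8 and 13.2 to 46.5 and 35.8 FPKM (1.53, adjusted p = 0.00069) and Cbx2 from 9.52 and 9.63 to 24.7 and 18.7 FPKM (1.09). Scml2, a germline-enriched subunit, fell from 69.8 and 58.8 to 23.1 and 17.1 FPKM (-1.64, adjusted p = 0.00072). Scmh1 (-1.29), Cbx7 (-0.94) and Phc3 (-0.75) fell too.

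In males 8 of the 9 were tested, 3 fell and 0 rose in limma, beside 25.3% and 21.0% of all male genes, with a median of -0.23. At an unadjusted p under 0.05, 3 were lower and 1 was higher, and with the replicate block 4 and 1 were called. Scml2 fell again, from 52.6 and 41.4 to 9.52 and 8.35 FPKM (-2.27, adjusted p = 0.0024). Cbx7 fell too (-1.13). Cbx2 went in the other direction from females, from 36.6 and 26.1 to 18.4 and 13.8 FPKM (-0.91, adjusted p = 0.036). Phc2 was at 31.1 to 43.7 FPKM in all 4 male libraries, and the groups overlapped.

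Partners of the other variant complexes include RYBP and YAF2, which stimulate the ligase, KDM2B, BCOR and BCORL1 of the PCGF1 complex, and AUTS2, FBRS and casein kinase 2 of the PCGF3 and PCGF5 complexes. Of 14 tested in females, 5 fell and 4 rose (median -0.44), shares close to the 34.6% and 26.9% of all female genes. With the replicate block 8 fell and 6 rose, beside 42.6% and 34.1%. Auts2 fell from 12.5 and 12.3 to 4.13 and 2.77 FPKM (-1.61), Csnk2b from 301 and 350 to 114 and 145 FPKM (-1.33) and Bcorl1 from 2.90 and 2.68 to 0.734 and 0.536 FPKM (-1.21). Bcorl1 was under 1 FPKM in both female Snf5 CKO libraries and was tested only because of its level in controls. It therefore had to differ, and it is counted among the 5 that fell. Kdm2b (-0.85) and Rybp (-0.65) also fell. The 4 that rose were Fbrsl1 (0.97), Usp7 (0.89), Fbrs (0.64) and Csnk2a1 (0.53), where the Fbrsl1 and Fbrs rows are merged with a neighbouring gene.

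Of the same 14 in males, 5 fell and 1 rose (median -0.52), beside 25.3% and 21.0% of all male genes, or 9 and 5 with the block, beside 41.2% and 35.1%. Auts2 (-1.25) and Bcorl1 (-1.72) fell as in females. Male Bcorl1 averaged 2.42 FPKM over the 4 libraries, so the limit that the filter set on its female value may hold in males too. Bcor, in a row merged with 2900008C10Rik, fell from 14.1 and 7.56 to 2.12 and 1.37 FPKM (-2.06), and Dcaf7 from 195 and 193 to 49.7 and 48.8 FPKM (-1.96). Csnk2a2 fell (-0.85), and Fbrsl1 rose (0.82), in a merged row.

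**Figure D4:**
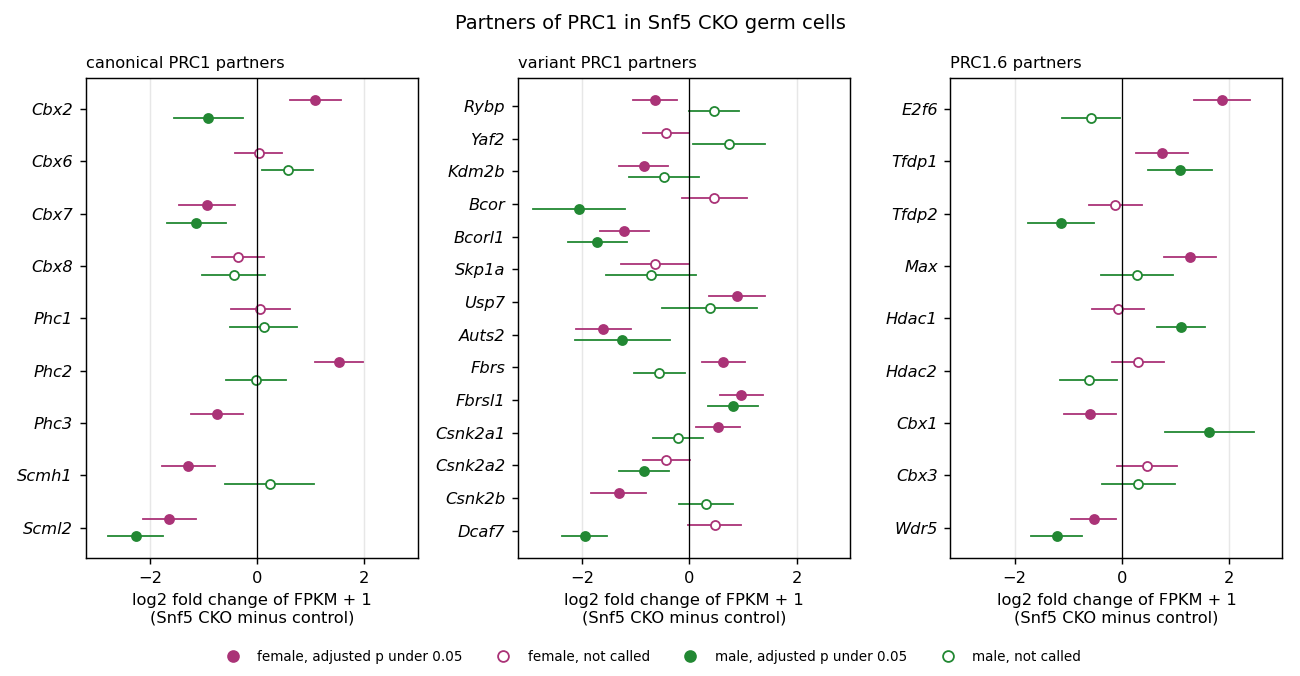
Log2 fold change of FPKM + 1 (Snf5 CKO minus control) with 95% intervals for partners of canonical PRC1, of variant PRC1 and of PRC1.6, in females (purple) and males (green), 2 libraries a group. Filled points passed an adjusted p of 0.05. Scml2, Cbx7, Auts2 and Bcorl1 are filled on the left in both sexes, and E2f6 and Max are filled on the right in females alone. Phc3 was tested in females alone.

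Among partners of PRC1.6, E2f6, Tfdp1 and Max rose in females, where Pcgf6, L3mbtl2 and Mga fell. E2f6, a repressive E2F that recognises E2F sites, rose from 7.12 and 4.91 to 26.6 and 22.4 FPKM (1.88, SE 0.22, adjusted p = 0.00056). Max, the partner of MGA, rose from 21.9 and 16.6 to 52.7 and 42.7 FPKM (1.27, adjusted p = 0.0020), and Tfdp1, the dimer partner of E2F6, from 77.0 and 67.3 to 139 and 107 FPKM (0.75). Cbx1 (-0.59) and Wdr5 (-0.53) fell. Of 9 tested, 2 fell and 3 rose (median 0.30), beside 34.6% and 26.9% of all female genes, or 2 and 5 with the block, beside 42.6% and 34.1%.

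In males 9 were tested, 2 fell and 3 rose as well (median 0.28), beside 25.3% and 21.0% of all male genes, or 4 and 5 with the block, beside 41.2% and 35.1%. Tfdp1 rose (1.08), as did Hdac1 from 61.0 and 56.9 to 135 and 121 FPKM (1.10) and Cbx1, the gene for the heterochromatin protein HP1 beta, from 26.2 and 43.0 to 87.3 and 130 FPKM (1.64). Wdr5 fell from 148 and 125 to 61.4 and 55.3 FPKM (-1.21) and Tfdp2 fell (-1.13). E2f6 was at 66.0 and 60.7 FPKM in male controls and 49.3 and 36.1 FPKM in Snf5 CKO (-0.57, adjusted p = 0.079).

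The reverse of the PRC1 reaction, removal of ubiquitin from H2A, is carried out by deubiquitinases such as BAP1, MYSM1, USP16 and USP21, and the list also held the ASXL cofactors of BAP1. Of 6 tested in females, 3 fell and 1 rose, beside 34.6% and 26.9% of all female genes. Those that fell were Mysm1 from 37.8 and 25.0 to 9.31 and 6.87 FPKM (-1.82), Asxl2, a cofactor (-1.12), and Usp16 (-0.77), and Usp21 rose from 15.3 and 13.8 to 43.7 and 38.7 FPKM (1.44). The list's median was -0.53. In males 3 of 6 fell and none rose (median -0.47), beside 25.3% and 21.0% of all male genes. Bap1 fell from 97.2 and 79.9 to 50.4 and 42.6 FPKM (-0.91), and Mysm1 (-0.88) and Usp16 (-0.72) fell less. The count of 0 that rose in limma was the same at an unadjusted p under 0.05 and with the replicate block.

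Germline genes that PRC1.6 silences in other cell types were mostly lower in Snf5 CKO. They encode proteins of the meiotic chromosome axis and cohesin (Sycp3, Hormad1, Smc1b, Stag3), of the piRNA and RNA-binding machinery (Mael, Tdrkh, Stk31, Ddx4, Dazl), and others of the germ line. In females 11 of 14 fell and none rose, with a median log2 fold change of -1.88 (13 and 0 with the block), beside 34.6% and 26.9% of all female genes (42.6% and 34.1% with the block). None rose at an unadjusted p under 0.05 in limma either, in either sex. The list was chosen with earlier results of these data known. Its counts in either sex are therefore not an independent comparison with all genes. Sycp3 fell from 2667 and 2445 to 180 and 252 FPKM (-3.58, adjusted p = 0.00016), Tex101 from 1451.5 and 1599 to 158 and 216 FPKM (-3.04) and Taf7l from 635 and 623 to 70.4 and 86.5 FPKM (-2.99). Smc1b (-2.47) and Slc25a31 (-2.09) came next. Ddx4 and Dazl were below both controls but were not called (adjusted p = 0.077 and 0.23), and Stra8 overlapped.

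In males 9 of 14 fell and none rose, with a median of -0.95 (10 and 3 with the block), beside 25.3% and 21.0% of all male genes (41.2% and 35.1% with the block). Mael, which takes part in transposon silencing, fell from 992 and 1005 to 107 and 148 FPKM (-2.97, adjusted p = 0.0023). Sycp3 fell from 189 and 263 to 33.0 and 46.0 FPKM (-2.49), and Tex101 (-2.12), Stk31 (-2.02) and Taf7l (-1.91) fell as well. Hormad1 and Stag3 overlapped between the male groups, and Smc1b, at 21.8 and 24.7 FPKM in controls and 25.7 and 28.8 FPKM in Snf5 CKO, was not called. Several of these genes are also markers of meiosis or of fetal male germ cells, so the list does not separate PRC1.6 from other regulators of the same genes.

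**Figure D5:**
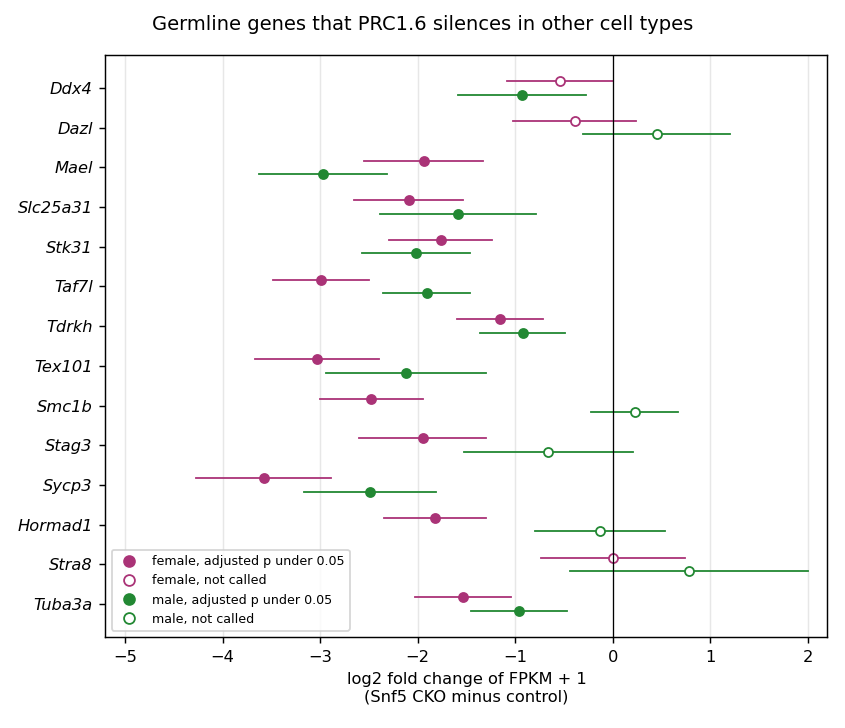
Log2 fold change of FPKM + 1 (Snf5 CKO minus control) with 95% intervals for 14 germline genes in females (purple) and males (green), 2 libraries a group. Filled points passed an adjusted p of 0.05. All filled points lie left of 0, 11 in females and 9 in males.

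PRC1.6 reaches such promoters through letters that MGA-MAX and E2F6 bind, the E-box CACGTG and the E2F site GCGGGAA. Both were searched on both strands in RefSeq promoters (GRCm38.p6, from 250 bases before to 50 after the start site), which matched 14 of the 14 germline genes and 9 of the 10 PRC1 genes. The E-box, whose letters read the same on both strands, is in a promoter of 8.09% of all 26994 genes with a window, the E2F site in 5.29% and both in 0.515%. Of the 14 germline genes, 8 held the E-box, 7 the E2F site and 5 both (Ddx4, Hormad1, Slc25a31, Stag3 and Sycp3). These genes were listed as PRC1.6 targets, so their counts are not an independent comparison with all genes. Promoters of similar CpG content were not compared. A match describes the letters only, and no binding was measured. Of the 9 PRC1 genes, Bmi1 and Pcgf2 held the E-box, Pcgf5 the E2F site and none both. The E-box was also in 4 of 8 canonical PRC1 partners, 1 of 10 variant partners and 2 of 8 PRC1.6 partners with a window, and none of these held both. In 3 of the 5 promoters with both, a copy of each lies before the start site. These stretches are printed to show the spacing, read along the gene, with E-boxes and E2F sites in capitals. The Hormad1 stretch is at chr3:95559557-95559676 (plus strand), that of Sycp3 at chr10:88459415-88459574 (plus strand) and that of Ddx4 at chr13:112652311-112652471 (minus strand).
Hormad1: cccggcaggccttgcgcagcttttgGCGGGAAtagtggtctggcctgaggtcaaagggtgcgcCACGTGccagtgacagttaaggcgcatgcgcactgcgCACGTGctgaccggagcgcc
Sycp3: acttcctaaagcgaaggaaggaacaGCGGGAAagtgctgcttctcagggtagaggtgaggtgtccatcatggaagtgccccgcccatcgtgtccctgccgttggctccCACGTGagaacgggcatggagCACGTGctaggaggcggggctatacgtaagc
Ddx4: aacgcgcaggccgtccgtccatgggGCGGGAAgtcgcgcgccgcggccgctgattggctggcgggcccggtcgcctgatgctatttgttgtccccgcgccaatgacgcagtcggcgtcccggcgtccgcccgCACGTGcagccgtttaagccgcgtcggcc

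The values of these 3 genes varied. Sycp3 fell in both sexes, as given above. Hormad1 fell in females from 626 and 626 to 161 and 193 FPKM (-1.82) but was at 86.8 and 124 FPKM in male controls and 82.2 and 109 FPKM in male Snf5 CKO. Ddx4 fell in males, from 565 and 458 to 300 and 237 FPKM (-0.93, adjusted p = 0.036).

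Developmental regulators that PRC1 silences through H3K27 methylation were mostly too low to test, with 7 of 18 tested in females and 8 in males. In females 4 rose and 1 fell (median 0.81), beside 26.9% and 34.6% of all female genes, led by Cdx2, a trophectoderm and hindgut regulator, from 3.38 and 3.64 to 102 and 77.4 FPKM (4.32, adjusted p = 9.7e-05). Lhx1 rose from 1.24 and 1.09 to 9.68 and 7.66 FPKM (2.15), and Msx1 (1.73) and Gata4 (0.81) rose less. In males 5 rose and 2 fell (median 1.18), beside 21.0% and 25.3% of all male genes. Lhx1 rose from 5.58 and 4.84 to 45.0 and 36.7 FPKM (2.75), and Gata4 (1.81), Msx1 (1.49), Pax6 (1.42) and Gata6 (0.95) rose less, while Isl1 fell from 4.77 and 4.47 to 0.184 and 0.208 FPKM (-2.23). Gata4 is also a supporting cell marker, and the supporting cell list rose in the same libraries. In the male table Cdx2 was at or below 0.484 FPKM in every library. Msx1, Pax6 and Gata6 were under 1 FPKM in both male controls and were tested in males only because of their level in Snf5 CKO. Male control values were 0.0727 and 0.178 FPKM for Msx1, 0.248 and 0.264 for Pax6, and 0.795 and 0.855 for Gata6. Male Isl1 was tested only because of its level in controls. A gene that passed the filter through the group where it is high had to differ, so these counts describe the tested genes only.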

How the data were processed

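RNA-Seq of sorted E15.5 germ cells gave 8 libraries. The authors used Tophat for mapping to mm10 and Cufflinks for quantification, one run per sex, and deposited FPKM values, their confidence bounds (16 columns, not used) and a status for each locus. The submitters' processing notes name TopHat2 2.2.1 and Cuffdiff 2.1.1, the methods other versions, and the annotation is not given in the sources used here. Starts are counted from 0 in the tables, so 1 was added. Named genes that averaged 1 FPKM or more were fitted per sex with limma on log2(FPKM + 1), with eBayes and a trend, and called at an adjusted p under 0.05; the code was tested on simulated data. The labels put the 4 libraries numbered 1 in one sequencing lane, and the difference of replicate 2 from replicate 1 correlated between control and Snf5 CKO across genes (0.500 in females, 0.607 in males), so the number was taken as a batch and used as a block in an alternative. The paper calls replicates biological; p-values measure the spread between these libraries. Named were the 10 genes, and for each list the called genes with the largest changes, up to 5 in each direction. The genes and lists were chosen with earlier results of these data known. Positions and overlaps of other genes came from GENCODE M21 (GRCm38). The alternatives changed the pseudocount (0.1) and the filter (none, or a mean of 5 FPKM), or used a common sum over named loci, median of ratios, eBayes without trend, linear FPKM, the replicate block, loci with status OK, the sum of all rows of a gene, and leaving out each library. One gene of the partner lists is not reported here.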

Additional observations from a re-analysis of the deposited data

Results flagged for a closer look

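Some genes differed in opposite directions in the 2 sexes, with no overlap between control and Snf5 CKO libraries in either. The difference between the sexes was not tested, because the tables were normalized separately. Over 10472 genes tested in both tables, 10.6% were below both controls in females and above both in males, and 10.1% the reverse. Among the 10 PRC1 genes these were L3mbtl2 (log2 fold change -0.75 in females and 0.89 in males) and Pcgf6 (-0.46 and 0.34). Of the partners, Cbx1 (-0.59 and 1.64), Csnk2b (-1.33 and 0.31), Rybp (-0.65 and 0.47) and Yaf2 (-0.44 and 0.74) were lower in female and higher in male Snf5 CKO. E2f6 (1.88 and -0.57), Cbx2 (1.09 and -0.91), Bcor (0.46 and -2.06), Dcaf7 (0.47 and -1.96), Fbrs (0.64 and -0.56), Csnk2a1 (0.53 and -0.21) and Hdac2 (0.30 and -0.62) were higher in female and lower in male Snf5 CKO. The female Fbrs row is merged with Prr14 but the male row is not, so its values cover different loci. For that reason Fbrs is not among the 10472 genes. Of the germline genes, Dazl (-0.39 and 0.45) and Smc1b (-2.47 and 0.22) were lower in female and higher in male Snf5 CKO. The male values of Pcgf6, Csnk2b, Rybp, Yaf2, E2f6, Fbrs, Csnk2a1, Hdac2, Dazl and Smc1b were not called, nor were the female values of Yaf2, Bcor, Dcaf7, Hdac2 and Dazl. With the replicate block all of these values were called, with adjusted p from limma of 0.00049 to 0.041 in males and 0.0046 to 0.044 in females.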

How the results depend on the processing

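Of 139 values recomputed for the 10 genes in females, 123 kept direction and side of the threshold, as did 113 of 139 in males. The replicate block gave 5058 male genes that fell and 4313 that rose, with 3 and 5 of the 10 PRC1 genes; in females it gave 6 and 3 of the 10, and it changed no call among them other than those given in the text. A mean of at least 5 FPKM left 2029 male genes that fell, and in females 1 PRC1 gene that rose, because Pcgf2 is then no longer tested. Scaling to a common sum left 1402 male genes that rose and 0 of the 10 (0 at an unadjusted p under 0.05 in limma), and it moved the median of all male genes by -0.17, while median of ratios moved it by 0.15 in both sexes. Linear FPKM left 1 male PRC1 gene that rose. Without 1 library the lone library of a group is assumed to vary like the others: the female PRC1 genes that fell then numbered 3 to 5, the male ones that fell 0 to 2 and that rose 0 to 1, and the male genes that fell 2153 to 2509 and that rose 1716 to 2077. Male Mga was called without Snf5 CKO replicate 1 (-1.19, adjusted p = 0.048). Directions turned only for differences that were not called: female Rnf2 with median of ratios (0.076), male Pcgf2 (-0.0089) and Pcgf3 (-0.12) with a common sum, male Pcgf1 without control replicate 2 (0.0042, with -0.64 at the other end of its range without 1 library), and male Pcgf3 without control replicate 2 (-0.20) or Snf5 CKO replicate 1 (-0.18, with up to 0.29 without another). The male share of Pcgf1 turned to 1.02 and 0.69 percentage points and that of Pcgf3 to -0.72 and -0.33 without those same libraries (ranges without 1 library from -4.93 to 1.02 and from -0.72 to 2.57). Where no value shows the cause of a change, the cause was not tested. The tables hold no counts, so limits of depth could not be computed.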
